A study of Mus musculus with 12 samples.

Results

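In this mouse study, CD8 T cells that had or had not met all-trans retinoic acid (ATRA) were sequenced in 2 states, and the question taken up here is where the effect of ATRA differed between the states. For each gene the ATRA effect after restimulation (ATRA minus CTRL, on the log2 scale) was set against the ATRA effect after co-culture alone, and the difference of both effects was tested as an interaction. All 12 libraries of the study entered, on the 13625 gene symbols that both deposited count tables spell alike, and 12364 of these were expressed highly enough to be tested.

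The cells were OT-I cells, CD8 T cells that carry a transgenic receptor for an ovalbumin peptide of the chicken. They were expanded with antibodies to CD3e and CD28 and with IL-2, and during this expansion received either 5 ng/mL ATRA or an equal volume of its solvent DMSO (CTRL). Every culture was then kept for 72 h at 1% oxygen with GL261, a mouse glioma line that here carried ovalbumin, with neither ATRA nor DMSO added in that phase. Restimulated cells (ATRA, n = 3 libraries, and CTRL, n = 3) had a further 24 h with antibody to CD3e before live CD45.2+ cells were sorted, and co-cultured cells (ATRA, n = 3, and CTRL, n = 3) were sorted straight after the co-culture. As a model this is a culture of T cells of 1 receptor specificity, in which ATRA was given before the co-culture and not during it. Whether the libraries of 1 group stem from different mice or cultures is not stated in the labels, and the p-values therefore cover the library-to-library spread alone, which may be technical. State, batch set and deposited table coincide and cannot be told apart; each ATRA effect was taken within 1 table.

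Retinoic acid, made from vitamin A, binds nuclear receptors of the RAR family, which pair with RXR proteins and switch target genes on or off; in T cells it is best known for imprinting receptors of gut homing such as CCR9. CD8 T cells that see antigen for long periods can become exhausted, with inhibitory receptors such as PD-1 at the surface and a weaker output of cytokines. Restimulation through CD3e reopens T cell receptor signalling, which works through the transcription factors NFAT, AP-1 and NF-kB and normally raises cytokine and chemokine genes within hours. A difference above 0 below means that ATRA, relative to CTRL, was more positive after restimulation than after co-culture, whatever the sign in either state.

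Depth was 16288111 to 20115836 counts per restimulated library and 23558244 to 26111497 per co-cultured library, and 3 counts amount to 0.184 CPM (counts relative to all counts of a library) where the depth was lowest. Levels below are CPM adjusted by the TMM method over all 12 libraries. Ccr9, the receptor that retinoic acid imprints, served as a check of the treatment labels. It had 100.2, 104 and 103 CPM in ATRA libraries, against 0 CPM in all 3 CTRL libraries after restimulation. After co-culture Ccr9 had 43.4, 42.3 and 46.2 CPM in ATRA libraries, against 0 CPM in all 3 CTRL libraries, which is at least 597-fold and at least 362-fold higher in ATRA cells, against a floor of 3 counts per library. With both CTRL groups at 0 the difference of its effects could not be estimated. Of the libraries, ATRA replicate 3 and CTRL replicate 1 of the co-cultured cells stood apart from their groups. The correlation of log CPM with the other libraries of its group was 0.961 and 0.973 for that ATRA library, against 0.995 between replicates 1 and 2. Several values that rest on these libraries, though not all, are also given without them. Of 8 listed marker genes of CD8 T cells 7 were tested, and their sum was 2420 to 2454 CPM in ATRA and 1843 to 2156 CPM in CTRL cells after restimulation, and 2480 to 3156 CPM in ATRA and 2258 to 3121 CPM in CTRL cells after co-culture. Among markers of other cells, 6 of 8 B cell genes were tested and summed to 48.6 to 53.4 CPM in ATRA and 22.7 to 29.0 CPM in CTRL libraries after restimulation, where Ms4a1 was at 0 in CTRL cells. After co-culture the B cell sums were 44.3 to 76.8 CPM in ATRA and 51.4 to 65.3 CPM in CTRL libraries. For macrophages 3 of 10 genes were tested, with sums of 22.6 to 23.9 CPM in ATRA and 11.6 to 17.1 CPM in CTRL cells after restimulation. After co-culture the macrophage sums were 21.7 to 25.7 CPM in ATRA and 13.2 to 14.4 CPM in CTRL cells. Most of each sum was Cd68, at a mean of 22.3 CPM in restimulated ATRA and 12.7 CPM in restimulated CTRL cells. Cd14 had a lower mean in ATRA cells in both states, and Itgam a lower one after restimulation and a higher one after co-culture. For glioma and stromal cells 6 of 15 genes were tested, with sums of 992 to 1054 CPM in ATRA and 857 to 1058 CPM in CTRL libraries after restimulation, and 1488 to 1705 CPM in ATRA and 955 to 1042 CPM in CTRL libraries after co-culture. Most of that sum was Vim, a filament gene that T cells also express, at a mean of 1465 CPM in co-cultured ATRA and 854 CPM in co-cultured CTRL cells. Dendritic cell genes, 7 of 10 tested, summed after co-culture to 117 to 233 CPM in ATRA and 67.4 to 75.04 CPM in CTRL libraries. Most of the ATRA sum was H2-Ab1, at a mean of 143 CPM in co-cultured ATRA and 28.9 CPM in co-cultured CTRL cells. Itgax, H2-Eb1 and H2-Aa also had higher means in ATRA cells there, and Zbtb46, Cd74 and Flt3 lower ones. CD4 T cell genes, 8 of 8 tested, summed after co-culture to 647 to 1031 CPM in ATRA and 425 to 443 CPM in CTRL libraries. The mean for Cd4 itself was 1.07 CPM in ATRA and 0.464 CPM in CTRL cells. After restimulation the dendritic sums were 102 to 104 CPM in ATRA and 68.4 to 109 CPM in CTRL libraries, and the CD4 T cell sums 472 to 491 CPM in ATRA and 217 to 253 CPM in CTRL libraries. NK cell genes, 7 of 9 tested, summed to 1021 to 1111 CPM in ATRA and 705 to 975 CPM in CTRL libraries after restimulation, with overlapping sums after co-culture, and none of 7 erythroid genes was tested. The part of these other cells in the results was not tested, and in bulk samples fewer cells of a type and less RNA per cell cannot be told apart.

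For about as many genes as not, the effect of ATRA differed between the states. The difference was called at an adjusted p under 0.05 for 6077 of the 12364 tested genes (49.2%), of which 2924 (23.6%) lay above 0 and 3153 (25.5%) below 0. It was both called and at least 2-fold for 3643 genes (29.5%), and a stricter test against a 2-fold difference (glmTreat) called 1840 (14.9%). Over all tested genes the median difference was -0.07 on the log2 scale and the median absolute difference 0.68. In the same fit 6784 genes (54.9%) had a called ATRA effect after restimulation, 3367 higher (27.2%) and 3417 lower (27.6%). After co-culture 5796 genes (46.9%) had one, 2912 higher (23.6%) and 2884 lower (23.3%). The counts given for gene lists below are to be read beside these shares of all tested genes.

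The genes called in both states split almost evenly between agreement and reversal. ATRA moved 1815 genes (14.7%) in the same direction in both states, and for 1310 of these the difference was not called. For 1621 genes (13.1%) the directions were opposite: 876 were higher after restimulation and lower after co-culture, and 745 were the reverse. At least 2-fold in both states, 236 genes turned the first way and 204 the second. Across the tested genes both effects correlated at 0.09 by Pearson's and at 0.09 by Spearman's coefficient, a description over genes of effects that use separate CTRL libraries. Most called differences arose where 1 state had a called effect and the other did not, with 1137 genes higher and 1193 lower after restimulation alone, and 791 higher and 638 lower after co-culture alone.

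**Figure D1:**
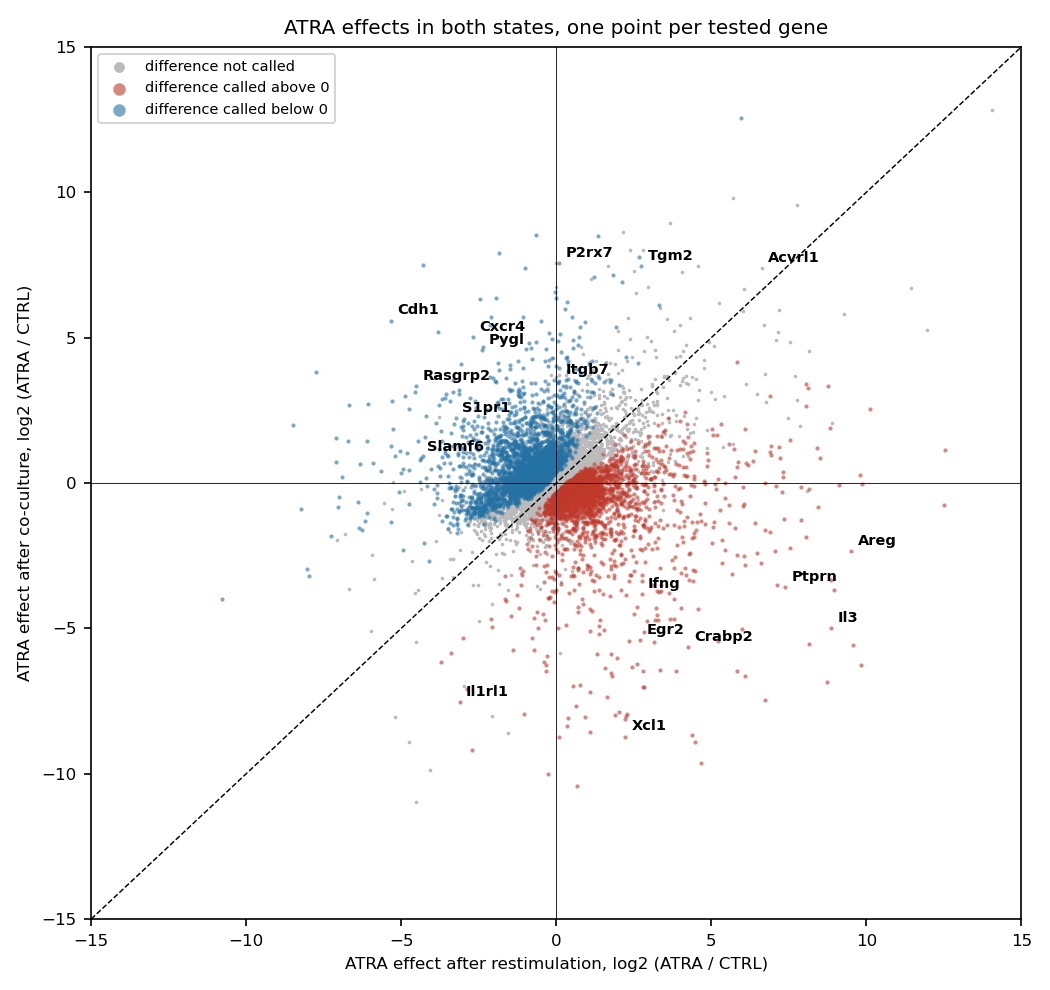
Each point is 1 of the 12364 tested genes, with the ATRA effect after restimulation on the x axis and after co-culture on the y axis (log2 of ATRA over CTRL), coloured by the call of the difference; the dashed line marks equal effects. Cytokine and chemokine genes such as Il3 and Xcl1 lie at the lower right, and Cdh1, Cxcr4 and Rasgrp2 at the upper left.

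**Figure D2:**
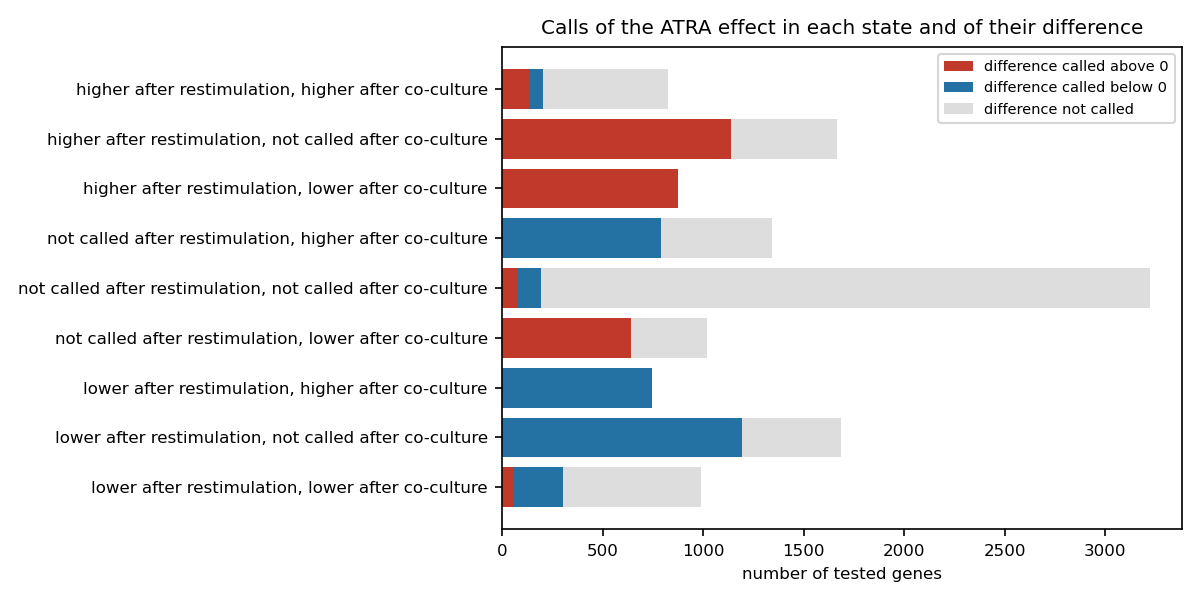
Bars count the tested genes by the call of the ATRA effect in each state, with the call of the difference in colour. The 876 and 745 genes with opposite calls in the states all have a called difference, while most of the 826 genes higher in both and of the 989 lower in both do not.

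Cytokine genes separated widely between the states. Of 26 listed cytokine genes 21 were tested; the difference was above 0 for 14 (66.7%, against 23.6% of all tested genes) and below 0 for 1, with a median of 4.74, or 4.67 with the genes that had a group at 0 set from the 3-count floor. Without both libraries that stood apart 15 lay above 0 and 3 below, with a median of 6.54. That fit called more genes in all, 3595 above and 3867 below 0, against 2924 and 3153 in the main fit. After restimulation ATRA raised 18 of them and lowered 1, while after co-culture it raised 8 and lowered 8. Il3, a growth factor for blood precursors and mast cells, had the largest of all differences that the naming rule took. After restimulation Il3 had 111, 119 and 122 CPM in ATRA libraries, against 0.169, 0.123 and 0.431 CPM in CTRL libraries. After co-culture Il3 had 0.538, 0.223 and 0.141 CPM in ATRA libraries, against 6.95, 11.9 and 11.2 CPM in CTRL libraries. The groups did not overlap in either state, and their order was opposite: ATRA cells were far above CTRL cells after restimulation and far below after co-culture. The difference was 13.86 (SE 0.52, adjusted p = 5.35e-09), and it was 14.58 without restimulated CTRL replicate 3 and 14.59 without co-cultured ATRA replicate 1.

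Ifng, which encodes interferon gamma, the main macrophage-activating cytokine of CD8 T cells, also turned round. Its restimulated libraries held 379, 389 and 384 CPM in ATRA libraries, against 57.1, 53.9 and 59.3 CPM in CTRL libraries. In the co-cultured libraries Ifng stood at 82.1, 71.6 and 10.6 CPM in ATRA libraries, against 912, 714 and 708 CPM in CTRL libraries. Here ATRA cells were lowest in the state where CTRL cells were highest, and co-cultured ATRA replicate 3 lay well under the other two. Ifng differed by 6.58 (SE 0.74, adjusted p = 2.67e-05), and by 5.96 without both libraries that stood apart. Csf1, the macrophage growth factor, had 60.5, 56.2 and 59.2 CPM in ATRA libraries, against 13.4, 9.57 and 11.4 CPM in CTRL libraries after restimulation. After co-culture Csf1 had 0.290, 0.534 and 0.282 CPM in ATRA libraries, against 22.9, 12.1 and 13.2 CPM in CTRL libraries. The order of the groups again reversed without overlap, and the difference was 7.78 (SE 0.40, adjusted p = 6.02e-08).

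Areg, which encodes the EGF receptor ligand amphiregulin, passed 1 CPM in the restimulated ATRA cells alone. It had 60.5, 61.6 and 57.5 CPM in ATRA libraries, against 0, 0.123 and 0.108 CPM in CTRL libraries after restimulation. After co-culture Areg had 0.124, 0.0445 and 0 CPM in ATRA libraries, against 0.586, 0.161 and 0.236 CPM in CTRL libraries, where every library lay low. That co-culture effect (-2.35, adjusted p = 0.0211) was -1.15 and not called without both libraries that stood apart (adjusted p = 0.205). The Areg difference was 11.87 (SE 0.92, adjusted p = 1.08e-06); it was 13.03 without co-cultured ATRA replicate 1, 11.17 without co-cultured CTRL replicate 1 and 10.67 without both libraries that stood apart. Tnf moved less: it had 66.5, 65.5 and 67.9 CPM in ATRA libraries, against 31.2, 36.1 and 31.3 CPM in CTRL libraries after restimulation. After co-culture Tnf had 121, 104 and 38.4 CPM in ATRA libraries, against 165, 123 and 134 CPM in CTRL libraries. The co-cultured groups did not overlap, but ATRA replicate 3 was far below the others and no effect was called there (-0.68, adjusted p = 0.0838). The co-culture effect of Tnf was called with the replicate block (-0.82, adjusted p = 0.0342), in limma-voom (-0.32, adjusted p = 0.00712) and without co-cultured ATRA replicate 1 (-0.98, adjusted p = 0.0292) or 3 (-0.33, adjusted p = 0.0324). Its difference was 1.71 (SE 0.43, adjusted p = 0.00685).

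Il4, the signature cytokine of type 2 responses, was higher in ATRA cells in both states. It had 67.6, 76.3 and 65.0 CPM in ATRA libraries, against 0, 0 and 0.0538 CPM in CTRL libraries after restimulation. After co-culture Il4 had 1.24, 2.63 and 14.96 CPM in ATRA libraries, against 0, 0.0402 and 0.118 CPM in CTRL libraries. ATRA cells were above every CTRL library each time, but their co-cultured values were widely spread and the CTRL groups rested on 1 and 4 counts in all, so the difference was not called (4.74, SE 3.60, adjusted p = 0.297). It was called with the replicate block (4.72, adjusted p = 0.00847), without co-cultured ATRA replicate 3 (6.44, adjusted p = 0.00375), without both libraries that stood apart, with each state fitted alone and in limma-voom. Ltb, the membrane-bound lymphotoxin chain needed for lymphoid tissue, was the single cytokine gene below 0. Ltb had 7.04, 9.30 and 7.24 CPM in ATRA libraries, against 53.8, 64.6 and 88.3 CPM in CTRL libraries after restimulation. After co-culture Ltb had 163, 171 and 211 CPM in ATRA libraries, against 77.1, 71.6 and 73.9 CPM in CTRL libraries, so that ATRA lowered it in one state and raised it in the other, and the difference was -4.42 (SE 0.25, adjusted p = 1.2e-07). Il2 is named only in the restimulated table, where it had 12, 19 and 6 counts in ATRA libraries and 0 in each CTRL library, so no difference could be formed.

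Chemokine genes followed the same pattern as the largest cytokine genes. Of 14 listed chemokine genes 7 were tested, 6 with a difference above 0 (85.7%, against 23.6% of all tested genes) and 1 below 0. Their median was 7.88. After restimulation 5 were higher and none lower in ATRA cells; after co-culture none was higher and 6 were lower. Xcl1, which attracts cross-presenting dendritic cells, had 284, 286 and 286 CPM in ATRA libraries, against 58.9, 55.9 and 67.9 CPM in CTRL libraries after restimulation. After co-culture Xcl1 had 1.41, 1.34 and 0.518 CPM in ATRA libraries, against 614, 378 and 410.3 CPM in CTRL libraries. ATRA cells thus held the higher level in one state and a level near 1 CPM in the other, with no overlap in either, and the difference was 10.95 (SE 0.37, adjusted p = 4.33e-09).

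Ccl3 and Ccl4, inflammatory chemokines of activated T cells and macrophages, behaved alike. Ccl3 had 816, 748 and 793 CPM in ATRA libraries, against 83.9, 100.1 and 77.2 CPM in CTRL libraries after restimulation. After co-culture Ccl3 had 61.6, 48.2 and 3.58 CPM in ATRA libraries, against 1180.1, 867 and 909 CPM in CTRL libraries. The co-cultured ATRA values fell to 3.58 CPM in replicate 3, and the difference was 7.88 (SE 0.95, adjusted p = 4.36e-05), or 7.19 without both libraries that stood apart. For Ccl4 the values were 627, 628 and 671 CPM in ATRA libraries, against 57.5, 82.9 and 58.3 CPM in CTRL libraries after restimulation and 29.9, 25.3 and 6.35 CPM in ATRA libraries, against 609, 499.6 and 496 CPM in CTRL libraries after co-culture, and the difference was 7.98 (SE 0.60, adjusted p = 1.26e-06). Ccl9, a CCR1 ligand, had 77.7, 77.3 and 68.5 CPM in ATRA libraries, against 20.5, 15.6 and 10.1 CPM in CTRL libraries after restimulation. After co-culture Ccl9 had 0.207, 0.757 and 1.79 CPM in ATRA libraries, against 266, 197 and 205 CPM in CTRL libraries. It shows the same reversal, and the difference was 10.22 (SE 0.58, adjusted p = 1.77e-07), 11.13 without co-cultured ATRA replicate 3 and 10.98 without both libraries that stood apart. The exception was Cxcl10, an interferon-inducible chemokine chosen for mention after its values were seen, with an ATRA effect of -1.88 after restimulation, 1.59 after co-culture and a difference of -3.47 (adjusted p = 0.0292).

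**Figure D3:**
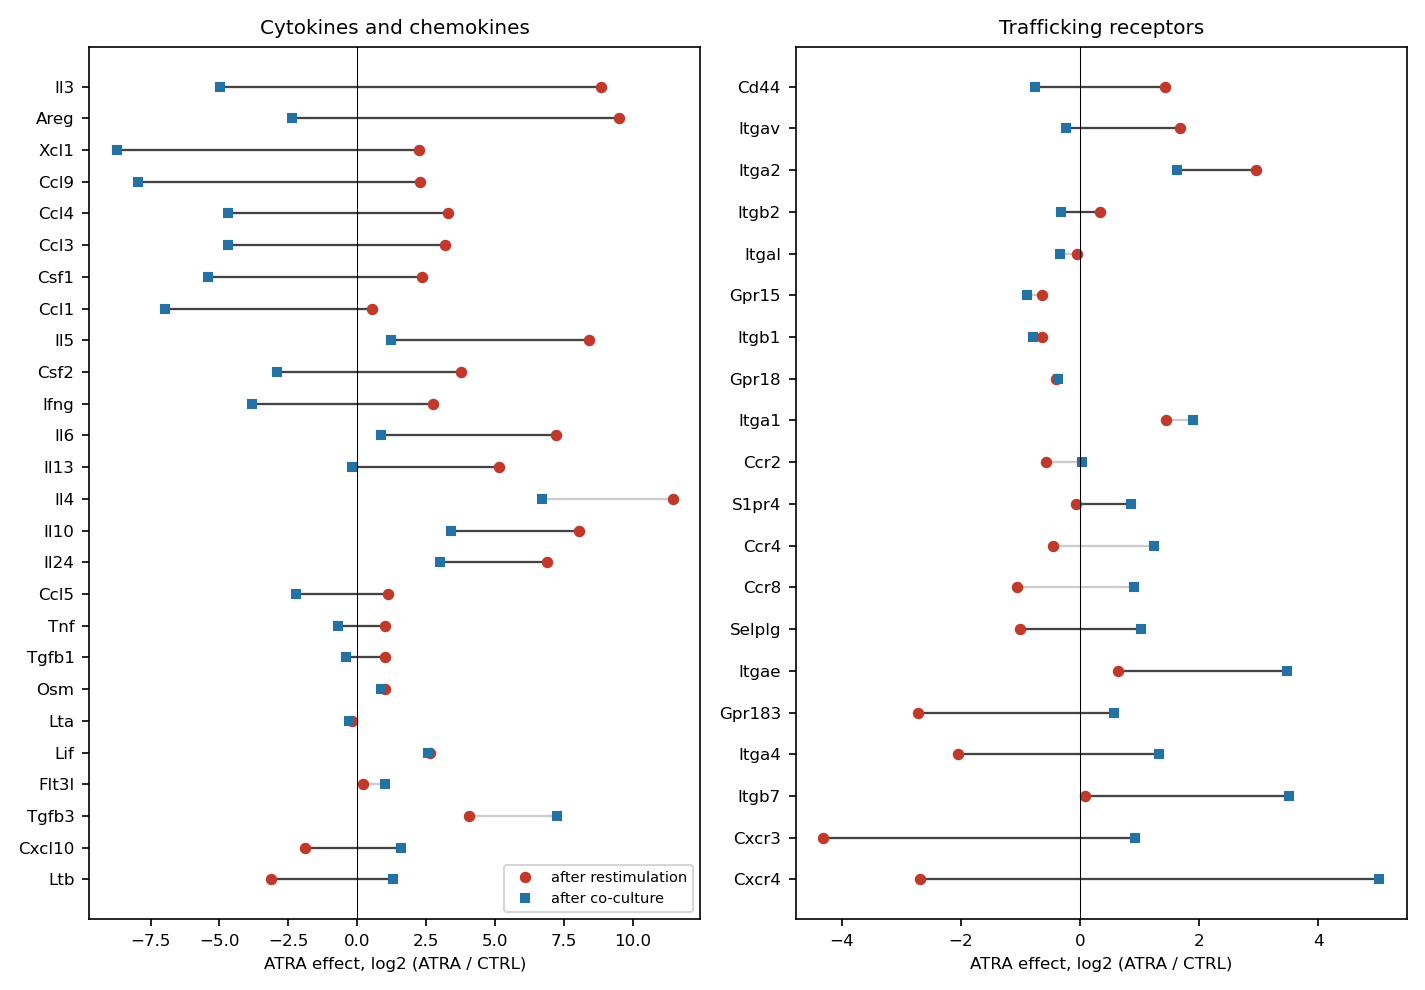
Lines join the ATRA effect (log2 of ATRA over CTRL) after restimulation (circles) and after co-culture (squares) for tested cytokine and chemokine genes and for most tested trafficking receptors, leaving out genes with a group at 0; dark lines mark a called difference. Il3, Xcl1, Ccl9, Ccl3, Ccl4, Csf1 and Ifng cross from above 0 to below 0, and Cxcr4, Cxcr3, Itga4 and Ltb cross the other way.

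Genes that answer T cell receptor signals within hours moved with the cytokines. All 36 listed genes were tested, and the difference was above 0 for 28 (77.8%, against 23.6% of all tested genes) and below 0 for 3. Their median was 2.29. ATRA raised 30 and lowered 3 of them after restimulation, and raised 8 and lowered 15 after co-culture. Egr2, a zinc finger factor induced by T cell receptor signals, had 152, 146 and 149.6 CPM in ATRA libraries, against 23.2, 27.9 and 17.8 CPM in CTRL libraries after restimulation. After co-culture Egr2 had 5.59, 5.12 and 4.38 CPM in ATRA libraries, against 249.7, 189.7 and 198 CPM in CTRL libraries. The groups lay apart in opposite order in the states, and the difference was 8.10 (SE 0.25, adjusted p = 1.46e-09). Nr4a1, another early gene often used as a reporter of receptor signal strength, had 46.6, 53.1 and 52.6 CPM in ATRA libraries, against 15.4, 13.3 and 9.80 CPM in CTRL libraries after restimulation. After co-culture Nr4a1 had 14.7, 15.5 and 19.5 CPM in ATRA libraries, against 64.7, 31.3 and 35.5 CPM in CTRL libraries, and the difference was 3.39 (SE 0.36, adjusted p = 1.54e-05). Rel, an NF-kB subunit, had 189.6, 194 and 185 CPM in ATRA libraries, against 56.7, 53.7 and 52.4 CPM in CTRL libraries after restimulation. After co-culture Rel had 32.3, 30.1 and 41.0 CPM in ATRA libraries, against 233, 150.2 and 162 CPM in CTRL libraries, and the difference was 4.20 (SE 0.23, adjusted p = 8.15e-08). Spred1, a feedback inhibitor of Ras signalling, differed by 4.34 (SE 0.22, adjusted p = 4.65e-08). In all of these ATRA cells were higher than CTRL cells after restimulation and lower after co-culture.

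Cytotoxic effector genes leaned the same way by smaller steps. All 21 were tested, with 11 above 0 (52.4%, against 23.6% of all tested genes), 2 below 0 and a median difference of 1.17. Prf1, the pore protein perforin, had 396, 387 and 398 CPM in ATRA libraries, against 139, 146 and 123 CPM in CTRL libraries after restimulation. After co-culture Prf1 had 287, 284 and 289 CPM in ATRA libraries, against 923, 721 and 739 CPM in CTRL libraries, and the difference was 3.01 (SE 0.14, adjusted p = 3.97e-08). Its groups were tight and in reversed order. Serpinb9, an inhibitor that shields cells from granzyme B, had 587, 592 and 637 CPM in ATRA libraries, against 108, 111 and 108 CPM in CTRL libraries after restimulation. After co-culture Serpinb9 had 84.7, 76.3 and 35.3 CPM in ATRA libraries, against 474, 310.4 and 329 CPM in CTRL libraries, and the difference was 4.98 (SE 0.38, adjusted p = 1.51e-06). Gzmb, which encodes granzyme B, hardly separated the states. It had 1124, 1079.9 and 1087 CPM in ATRA libraries, against 712, 747 and 804 CPM in CTRL libraries after restimulation. After co-culture Gzmb had 1196, 1214 and 1788 CPM in ATRA libraries, against 1821, 1292 and 1303 CPM in CTRL libraries, where the groups overlapped. The Gzmb difference was 0.61 (SE 0.23, adjusted p = 0.0445), and the call was lost with the replicate block (adjusted p = 0.0786) and on leaving out any 1 restimulated library, co-cultured ATRA replicate 1 or 2, or co-cultured CTRL replicate 1 (adjusted p 0.0563 to 0.101).

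Among 21 inhibitory receptors and ligands, all tested, 12 differences lay above 0 (57.1%, against 23.6% of all tested genes) and 3 below. Their median was 1.75. Pdcd1, which encodes PD-1, had 78.9, 62.0 and 67.9 CPM in ATRA libraries, against 62.5, 68.7 and 83.6 CPM in CTRL libraries after restimulation, where the groups overlapped and no effect was called. After co-culture Pdcd1 had 24.8, 19.9 and 3.67 CPM in ATRA libraries, against 167, 115 and 115 CPM in CTRL libraries, with ATRA cells well below CTRL cells. The difference was 2.99 (SE 0.65, adjusted p = 0.00257), and 2.32 without both libraries that stood apart. Tigit, a receptor for CD155, had 149, 148 and 145 CPM in ATRA libraries, against 33.6, 37.5 and 40.6 CPM in CTRL libraries after restimulation. After co-culture Tigit had 50.1, 51.5 and 56.5 CPM in ATRA libraries, against 119.7, 111 and 117 CPM in CTRL libraries, a reversal with a difference of 3.12 (SE 0.13, adjusted p = 9.31e-09). Cd274, which encodes the PD-1 ligand PD-L1, had 156, 153 and 152 CPM in ATRA libraries, against 21.4, 18.0 and 21.5 CPM in CTRL libraries after restimulation. After co-culture Cd274 had 36.0, 33.7 and 39.8 CPM in ATRA libraries, against 47.1, 57.4 and 55.5 CPM in CTRL libraries, and its difference was 3.46 (SE 0.16, adjusted p = 2.56e-08). Havcr2, which encodes TIM-3, differed by 1.75 (SE 0.30, adjusted p = 0.000602) and Lag3 by 1.31 (SE 0.31, adjusted p = 0.00487), both with higher levels in restimulated ATRA cells. Ctla4 was called higher in ATRA cells in both states (after restimulation not without CTRL replicate 1, adjusted p = 0.0544), and its difference was not called (-0.60, SE 0.34, adjusted p = 0.171; -0.82 and adjusted p = 0.0312 without co-cultured ATRA replicate 1). Pecam1, an adhesion molecule that can deliver inhibitory signals, ran against the group: it had 29.2, 27.6 and 28.8 CPM in ATRA libraries, against 25.5, 23.8 and 40.1 CPM in CTRL libraries after restimulation. After co-culture Pecam1 had 69.1, 65.4 and 88.4 CPM in ATRA libraries, against 16.7, 15.1 and 15.2 CPM in CTRL libraries, and the difference was -2.31 (SE 0.26, adjusted p = 1.96e-05).

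For costimulatory genes of the TNF superfamily, 16 of 17 were tested, with 8 above 0 (50%), 3 below 0 (18.8%) and a median of 0.87. Of all tested genes 23.6% lay above and 25.5% below 0. Tnfrsf9, which encodes 4-1BB, had 401, 382 and 407 CPM in ATRA libraries, against 92.7, 97.8 and 98.0 CPM in CTRL libraries after restimulation. After co-culture Tnfrsf9 had 575, 589.9 and 699.7 CPM in ATRA libraries, against 634, 406 and 429 CPM in CTRL libraries. A clear ATRA effect after restimulation stood beside overlapping groups after co-culture, and the difference was 1.70 (SE 0.21, adjusted p = 3.8e-05). The Tnfrsf9 co-culture effect of 0.34 (adjusted p = 0.0695) was 0.57 and called without co-cultured CTRL replicate 1 (adjusted p = 0.000942), and 0.48 without both libraries that stood apart (adjusted p = 1.25e-05). Tnfrsf4, which encodes OX40, differed by 1.67 (SE 0.19, adjusted p = 1.98e-05), and Tnfsf11, the cytokine RANKL, by 3.11 (SE 0.30, adjusted p = 7.72e-06). Regulators linked with terminal exhaustion were mixed: of 19 tested from 20 listed, 6 lay above 0 (31.6%) and 4 below 0 (21.1%). Their median was 0.61, and both shares were near those of all tested genes. Zeb2, a transcription factor of terminal effector cells, differed by 2.03 (SE 0.16, adjusted p = 1.23e-06), Tbx21, which encodes T-bet, by 1.30 (SE 0.17, adjusted p = 6.35e-05), Eomes by 2.12 (SE 0.40, adjusted p = 0.00104) and Ikzf2, which encodes Helios, by -2.83 (SE 0.25, adjusted p = 3.52e-06). Tox, a factor that installs the exhaustion program, stayed at or under 5.57 CPM in every library and its difference was not called (1.45, SE 1.23, adjusted p = 0.352).

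Genes of progenitor and memory T cells leaned below 0. All 22 were tested, with 6 above 0 (27.3%, against 23.6% of all tested genes) and 11 below 0 (50%, against 25.5%). Xcl1, described with the chemokines, is on this list too and is among the 6 above 0, with a difference of 10.95. Their median was -1.08. ATRA raised 9 and lowered 9 after restimulation, and raised 12 and lowered 4 after co-culture. S1pr1, the receptor for sphingosine phosphate that lets T cells leave lymphoid tissue, had 8.66, 8.47 and 7.54 CPM in ATRA libraries, against 83.5, 74.9 and 74.6 CPM in CTRL libraries after restimulation. After co-culture S1pr1 had 67.6, 66.2 and 91.1 CPM in ATRA libraries, against 13.2, 17.1 and 17.3 CPM in CTRL libraries. Levels were low in restimulated ATRA and co-cultured CTRL cells and high in the other groups, with no overlap within a state, and the difference was -5.48 (SE 0.22, adjusted p = 7.2e-09). Lef1, a partner of TCF1, had 30.7, 29.4 and 30.6 CPM in ATRA libraries, against 106, 112 and 96.0 CPM in CTRL libraries after restimulation. After co-culture Lef1 had 136, 132 and 124 CPM in ATRA libraries, against 60.5, 70.0 and 66.7 CPM in CTRL libraries, and the difference was -2.78 (SE 0.13, adjusted p = 2.77e-08). Slamf6, a surface marker of progenitor exhausted cells, had 0.894, 1.15 and 1.70 CPM in ATRA libraries, against 25.2, 27.9 and 25.5 CPM in CTRL libraries after restimulation. After co-culture Slamf6 had 10.2, 9.08 and 4.47 CPM in ATRA libraries, against 4.94, 3.82 and 4.26 CPM in CTRL libraries. It was highest in restimulated CTRL cells, the co-cultured groups overlapped, and the difference was -5.25 (SE 0.43, adjusted p = 1.62e-06).

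Tcf7, which encodes TCF1, the defining factor of progenitor exhausted cells, rested on single libraries. It had 0.782, 0.261 and 0.200 CPM in ATRA libraries, against 0.731, 0.552 and 7.53 CPM in CTRL libraries after restimulation. After co-culture Tcf7 had 14.5, 15.2 and 2.82 CPM in ATRA libraries, against 6.36, 2.69 and 3.31 CPM in CTRL libraries, and the groups overlapped in both states. The difference of -4.24 (SE 1.38, adjusted p = 0.0241) was -2.05 (adjusted p = 0.15) without restimulated CTRL replicate 3, -5.05 without restimulated ATRA replicate 1 and -5.17 without both libraries that stood apart. The call also ended when the replicate block was added (-3.35, adjusted p = 0.0596) and without any 1 of restimulated ATRA replicates 2 and 3, co-cultured ATRA replicates 1 and 2 and co-cultured CTRL replicates 2 and 3. Klf2, which drives S1pr1 and other genes of recirculation, had 0.503, 0.470 and 0.150 CPM in ATRA libraries, against 0.169, 0.736 and 1.02 CPM in CTRL libraries after restimulation, where the groups overlapped. After co-culture Klf2 had 6.54, 6.32 and 3.86 CPM in ATRA libraries, against 0.209, 0.121 and 0.512 CPM in CTRL libraries, all 3 ATRA libraries being higher; the difference was -5.06 (SE 0.91, adjusted p = 0.000689), and -5.82 without co-cultured CTRL replicate 3.

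Trafficking receptors held some of the strongest reversals below 0. Of 25 listed genes 23 were tested, with 4 above 0 (17.4%, against 23.6% of all tested genes) and 8 below 0 (34.8%, against 25.5%). Their median was -0.45, and -0.03 without both libraries that stood apart, so the list as a whole lay near the background. Cxcr4, the receptor for CXCL12 that retains cells in bone marrow and other niches, had 18.0, 19.5 and 16.4 CPM in ATRA libraries, against 112, 109.7 and 124 CPM in CTRL libraries after restimulation. After co-culture Cxcr4 had 213, 258 and 484 CPM in ATRA libraries, against 9.63, 9.97 and 9.66 CPM in CTRL libraries. ATRA cells lay below CTRL cells in one state and above in the other, and the difference was -7.71 (SE 0.37, adjusted p = 5.73e-08). Cxcr3, the receptor for interferon-inducible chemokines, had 1.34, 1.05 and 1.40 CPM in ATRA libraries, against 21.8, 24.2 and 29.2 CPM in CTRL libraries after restimulation. After co-culture Cxcr3 had 6.01, 4.14 and 3.91 CPM in ATRA libraries, against 2.22, 2.73 and 2.48 CPM in CTRL libraries, and the difference was -5.23 (SE 0.31, adjusted p = 1.69e-07).

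Itga4 and Itgb7, the integrin chains of gut homing that retinoic acid is known to induce in T cells, were higher in ATRA cells after co-culture. Itga4, the alpha4 chain, had 127, 126 and 125 CPM in ATRA libraries, against 567, 503 and 502 CPM in CTRL libraries after restimulation. After co-culture Itga4 had 248, 262 and 345 CPM in ATRA libraries, against 99.0, 129 and 112 CPM in CTRL libraries, so the order of the groups turned, and the difference was -3.38 (SE 0.19, adjusted p = 9.52e-08). Itgb7, its beta7 partner, had 239.7, 236 and 246 CPM in ATRA libraries, against 191, 217 and 271 CPM in CTRL libraries after restimulation, where the groups overlapped. After co-culture Itgb7 had 512, 507 and 739 CPM in ATRA libraries, against 50.2, 50.8 and 52.3 CPM in CTRL libraries, and the difference was -3.43 (SE 0.22, adjusted p = 2.71e-07). Itgae, which encodes CD103, another partner of beta7, differed by -2.83 (SE 0.95, adjusted p = 0.0277), with co-cultured ATRA libraries at 1.78, 4.68 and 19.0 CPM. That value was -1.44 without co-cultured ATRA replicate 3 and -1.26 (adjusted p = 0.0995) without both libraries that stood apart. The Itgae call was also lost on leaving out any 1 restimulated library but CTRL replicates 1 and 2, or co-cultured CTRL replicate 1 or 3 (adjusted p 0.054 to 0.0637).

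**Figure D4:**
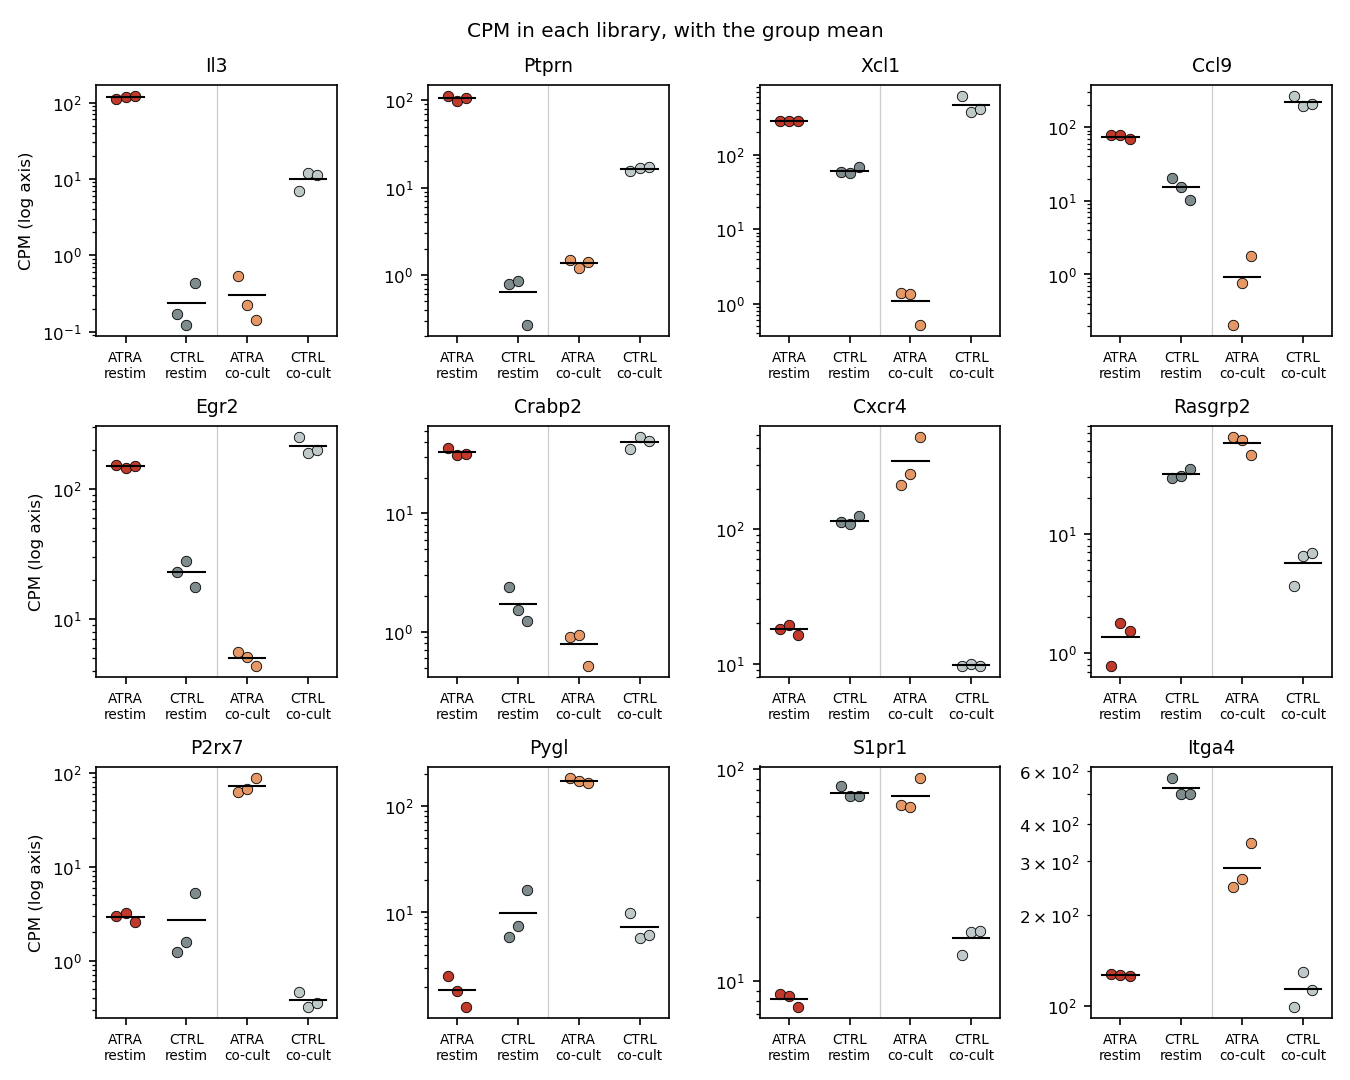
Points are the CPM of single libraries (log axis) and bars the group means for 12 named genes, with restimulated cells on the left and co-cultured cells on the right of each panel. For Il3, Ptprn, Xcl1, Ccl9, Egr2 and Crabp2 ATRA lies above CTRL after restimulation and below it after co-culture, and for Cxcr4, Rasgrp2, S1pr1 and Itga4 the order is the reverse.

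The retinoid pathway itself did not respond as 1 block. Of 20 listed genes 13 were tested, with 5 above 0 and 5 below 0 (38.5% each, against 23.6% and 25.5% of all tested genes). Their median was -0.29. Crabp2, which carries retinoic acid to its nuclear receptors, had 36.0, 31.3 and 32.0 CPM in ATRA libraries, against 2.42, 1.53 and 1.24 CPM in CTRL libraries after restimulation. After co-culture Crabp2 had 0.911, 0.935 and 0.518 CPM in ATRA libraries, against 35.2, 44.2 and 40.8 CPM in CTRL libraries. It was low in 2 of the groups and high in the others, in opposite order in the states, and the difference was 9.90 (SE 0.35, adjusted p = 4.33e-09). Tgm2, a transglutaminase gene induced by retinoids in many cells, had 6.98, 6.43 and 7.04 CPM in ATRA libraries, against 0.450, 0.368 and 2.15 CPM in CTRL libraries after restimulation. After co-culture Tgm2 had 48.0, 51.7 and 61.8 CPM in ATRA libraries, against 0.293, 0.321 and 0.276 CPM in CTRL libraries. ATRA cells were higher in both states, more so after co-culture, and the difference was -4.73 (SE 0.67, adjusted p = 0.00014), or -3.44 without restimulated CTRL replicate 3. Rara, which encodes the receptor RAR alpha, had 30.2, 26.9 and 31.6 CPM in ATRA libraries, against 18.1, 20.6 and 22.98 CPM in CTRL libraries after restimulation. After co-culture Rara had 58.7, 53.1 and 41.8 CPM in ATRA libraries, against 20.5, 18.1 and 15.9 CPM in CTRL libraries, and its difference was -0.97 (SE 0.21, adjusted p = 0.00237).

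In the TGF-beta family all 22 listed genes were tested, with 5 above 0 (22.7%) and 9 below 0 (40.9%), against 23.6% and 25.5% of all tested genes. Their median was -0.29, and -0.05 without both libraries that stood apart. Inhba, which encodes a chain of the ligand activin A, had 322, 316 and 311 CPM in ATRA libraries, against 6.24, 4.54 and 3.01 CPM in CTRL libraries after restimulation. After co-culture Inhba had 6.25, 5.74 and 2.96 CPM in ATRA libraries, against 25.7, 39.7 and 39.7 CPM in CTRL libraries. Restimulated ATRA cells stood out from the other 3 groups, and the difference was 8.91 (SE 0.43, adjusted p = 6.02e-08). Tgfbr1, a receptor chain, and Smad3, which carries the signal to the nucleus, ran the other way by -1.92 (SE 0.26, adjusted p = 9.24e-05) and -1.93 (SE 0.33, adjusted p = 0.000534). Acvrl1, the receptor ALK1, was raised by ATRA in both states: it had 70.2, 64.3 and 70.4 CPM in ATRA libraries, against 0.281, 0.430 and 1.29 CPM in CTRL libraries after restimulation. After co-culture Acvrl1 had 19.8, 20.5 and 23.6 CPM in ATRA libraries, against 0.0419, 0.241 and 0.0788 CPM in CTRL libraries. The difference was not called and its interval was wide (-0.75, SE 0.67, 95% interval -2.21 to 0.72).

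Among 14 purinergic genes, all tested, 3 differences lay above 0 (21.4%, against 23.6% of all tested genes) and 7 below (50%, against 25.5%). Their median was -1.23, or -0.85 with the gene that had a group at 0 set from the 3-count floor. P2rx7, the channel that opens to extracellular ATP, had 3.02, 3.24 and 2.55 CPM in ATRA libraries, against 1.24, 1.60 and 5.27 CPM in CTRL libraries after restimulation, where the groups overlapped. After co-culture P2rx7 had 62.0, 67.0 and 88.2 CPM in ATRA libraries, against 0.460, 0.321 and 0.355 CPM in CTRL libraries, with no overlap. The difference was -7.46 (SE 0.65, adjusted p = 4.26e-06), and -6.51 without restimulated CTRL replicate 3, where the restimulated effect was 1.05 (adjusted p = 0.00359). The A2 adenosine receptors lay above 0. Adora2a, the main suppressive adenosine receptor of T cells, had 106, 101 and 104 CPM in ATRA libraries, against 48.4, 45.1 and 39.1 CPM in CTRL libraries after restimulation. After co-culture Adora2a had 23.7, 25.4 and 19.3 CPM in ATRA libraries, against 92.5, 75.5 and 84.7 CPM in CTRL libraries, a reversal with a difference of 3.11 (SE 0.17, adjusted p = 1.03e-07). Adora2b differed by 3.42 (SE 0.35, adjusted p = 9.14e-06). Entpd1, which encodes the ATP-degrading enzyme CD39, differed by -1.18 (SE 0.31, adjusted p = 0.00811), with a called ATRA effect after co-culture (1.34). Its restimulated effect of 0.15 (adjusted p = 0.59) was 0.56 and called without restimulated CTRL replicate 3 (adjusted p = 0.00462).

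The sequences upstream of 3 named genes with large differences are printed because they match TGANTCA, a loose spelling of an AP-1 site. N stands for any base, and AP-1 is one of the factors that T cell receptor signals activate. They are the 250 bases before the start of the RefSeq gene in build GRCm38.p6, 5′ to 3′ on the gene's strand, with the match to TGANTCA in capitals; the deposited counts were made on another build and carry no coordinates. Ccl9 lies at chr11:83578637-83578886 on the minus strand, P2rx7 at chr5:122643677-122643926 on the plus strand and Clec12a, a lectin receptor of myeloid cells, at chr6:129349994-129350243 on the plus strand.
Ccl9: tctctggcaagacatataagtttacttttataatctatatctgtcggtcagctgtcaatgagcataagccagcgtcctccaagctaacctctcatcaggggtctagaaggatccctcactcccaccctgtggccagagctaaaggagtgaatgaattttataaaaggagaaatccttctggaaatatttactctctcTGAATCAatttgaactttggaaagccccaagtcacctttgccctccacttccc
P2rx7: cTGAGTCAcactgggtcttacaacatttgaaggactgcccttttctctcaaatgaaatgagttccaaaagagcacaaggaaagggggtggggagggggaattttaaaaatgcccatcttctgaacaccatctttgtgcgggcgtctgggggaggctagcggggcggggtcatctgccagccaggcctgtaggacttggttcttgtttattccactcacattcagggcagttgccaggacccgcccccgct
Clec12a: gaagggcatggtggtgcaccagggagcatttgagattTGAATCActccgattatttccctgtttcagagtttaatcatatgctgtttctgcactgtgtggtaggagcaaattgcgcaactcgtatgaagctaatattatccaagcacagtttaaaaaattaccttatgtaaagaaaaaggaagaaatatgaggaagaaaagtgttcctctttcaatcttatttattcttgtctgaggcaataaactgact
The first base of the match is 53 bases before the start in Ccl9, 249 in P2rx7 and 213 in Clec12a. The match reads TGAATCA in Ccl9 and Clec12a and TGAGTCA in P2rx7. A match to this loose spelling thus stands upstream of a gene with a difference above 0 and of 2 genes below 0. Promoters were found for 9581 of the tested genes. Matches to TGANTCA, which reads alike on both strands, occurred in 5.17% of promoters with a difference above 0. They were in 3.63% of those below 0 and in 4.2% of all. They occurred together with TTTCC, a core of NFAT sites, on either strand in 3.18% of promoters above 0, 2.11% below 0 and 2.28% of all. ACGTG, the core of hypoxia response elements, was in 23.6% of promoters above 0, 23.1% below 0 and 22.1% of all. The direct repeat of AGGTCA with a spacing of 5 bases, bound by retinoic acid receptors, was in none of the 9581 promoters. Only this exact spelling was searched, so its absence says nothing about retinoic acid sites spelled or spaced otherwise. These matches are a description of the letters and name no bound site.

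Genes of the hypoxia response ran below 0. The co-culture was kept at 1% oxygen for both states, and the part of oxygen in the difference was not tested. All 24 were tested, with 2 above 0, 16 below 0 (66.7%, against 25.5% of all tested genes) and a median of -1.24. After co-culture ATRA raised 21 of the 24 and lowered none, and after restimulation it raised 13 and lowered 5. Of all tested genes it raised 23.6% after co-culture and 27.2% after restimulation. Pdk1, a kinase that keeps pyruvate out of mitochondria, had 18.1, 22.3 and 15.6 CPM in ATRA libraries, against 73.8, 65.4 and 64.9 CPM in CTRL libraries after restimulation. After co-culture Pdk1 had 198, 192 and 166 CPM in ATRA libraries, against 97.5, 90.7 and 92.2 CPM in CTRL libraries, in reversed order, and the difference was -2.85 (SE 0.18, adjusted p = 2.14e-07). Zfp395, a hypoxia-inducible zinc finger gene, had 1.17, 2.46 and 1.80 CPM in ATRA libraries, against 2.87, 3.13 and 9.36 CPM in CTRL libraries after restimulation. After co-culture Zfp395 had 114, 124 and 159 CPM in ATRA libraries, against 9.96, 6.91 and 7.02 CPM in CTRL libraries, and the difference was -5.56 (SE 0.58, adjusted p = 1.57e-05), or -4.77 without restimulated CTRL replicate 3. Kdm3a, a histone demethylase, differed by -1.93 (SE 0.22, adjusted p = 2.08e-05). Glycolysis genes moved with them: of 22 tested none lay above 0 and 16 (72.7%, against 25.5% of all tested genes) below, with a median of -0.91. Pgm1, which links glycogen and glucose phosphates, had 34.0, 32.0 and 35.0 CPM in ATRA libraries, against 63.9, 66.8 and 51.8 CPM in CTRL libraries after restimulation. After co-culture Pgm1 had 243, 279 and 411 CPM in ATRA libraries, against 114, 120.2 and 115 CPM in CTRL libraries, and the difference was -2.27 (SE 0.23, adjusted p = 1.08e-05). Pygl, a glycogen phosphorylase best known from liver, had 2.51, 1.83 and 1.30 CPM in ATRA libraries, against 5.85, 7.49 and 16.1 CPM in CTRL libraries after restimulation. After co-culture Pygl had 183, 171 and 164 CPM in ATRA libraries, against 9.84, 5.79 and 6.19 CPM in CTRL libraries, and the difference was -6.96 (SE 0.52, adjusted p = 1.23e-06).

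Sterol and fatty acid synthesis was lower in ATRA cells in both states. Of 31 listed genes 30 were tested, and ATRA lowered 22 after restimulation and 19 after co-culture, while it raised 1 and none. The difference was above 0 for 6 (20%) and below 0 for 10 (33.3%), against 23.6% and 25.5% of all tested genes, with a median of -0.49. Stard4, a carrier protein of cholesterol, had 18.8, 20.7 and 25.6 CPM in ATRA libraries, against 78.3, 63.6 and 64.6 CPM in CTRL libraries after restimulation. After co-culture Stard4 had 63.0, 59.4 and 72.1 CPM in ATRA libraries, against 70.4, 82.5 and 85.5 CPM in CTRL libraries, and the difference was -1.37 (SE 0.19, adjusted p = 0.000118). Of 9 cholesterol efflux genes none was above and 2 (22.2%, near the 25.5% of all tested genes) were below 0. Without both libraries that stood apart 1 and 4 were, in a fit that called more genes in all. Abcg1, an exporter of cholesterol, had 3.57, 2.46 and 6.34 CPM in ATRA libraries, against 11.0, 13.3 and 13.9 CPM in CTRL libraries after restimulation. After co-culture Abcg1 had 26.2, 26.8 and 29.6 CPM in ATRA libraries, against 9.25, 10.5 and 10.5 CPM in CTRL libraries, and the difference was -3.07 (SE 0.36, adjusted p = 3.13e-05).

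Most mitosis genes were lower in ATRA cells in both states. Of 26 mitosis genes, all tested, ATRA lowered 26 after restimulation and 15 after co-culture; 16 differences were below 0 and none above, with a median of -1.44. Of 32 genes of the G1/S step and replication 18 (56.2%) were below and 1 above 0 (median -1.15). Of 29 replication histone genes 16 (55.2%) were below and 1 above 0 (median -1.32), against 25.5% of all tested genes below 0. These counts depend on co-cultured ATRA replicate 3: without it 30, 26 and 28 members of the G1/S, mitosis and histone lists were called. Over all tested genes the calls rose from 6077 to 7046 in that fit. Mki67, the proliferation marker Ki-67, had 473, 451 and 438 CPM in ATRA libraries, against 2545, 2494 and 2379 CPM in CTRL libraries after restimulation. After co-culture Mki67 had 1243, 1130.4 and 608 CPM in ATRA libraries, against 1871, 1781 and 1859 CPM in CTRL libraries, with that library at 608 CPM. ATRA lay below CTRL without overlap both times, and the difference was -1.56 (SE 0.28, adjusted p = 0.000608). Aurkb, a mitotic kinase, had 10.8, 11.0 and 10.1 CPM in ATRA libraries, against 82.4, 97.1 and 86.5 CPM in CTRL libraries after restimulation. After co-culture Aurkb had 54.9, 49.1 and 19.7 CPM in ATRA libraries, against 47.6, 68.8 and 72.6 CPM in CTRL libraries, where the groups overlapped. That co-culture effect (-0.61, adjusted p = 0.105) was -0.44 and called without both libraries that stood apart (adjusted p = 0.00199). Aurkb differed by -2.45 (SE 0.42, adjusted p = 0.000604). Mcm6, part of the replicative helicase, had 178, 185 and 185 CPM in ATRA libraries, against 630.1, 641 and 683 CPM in CTRL libraries after restimulation. After co-culture Mcm6 had 472, 459.7 and 441 CPM in ATRA libraries, against 439, 385 and 409 CPM in CTRL libraries, and the difference was -1.99 (SE 0.11, adjusted p = 8.09e-08).

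Of 30 Myc and ribosome biogenesis genes, all tested, 3 lay above 0 (10.0%, against 23.6% of all tested genes) and 4 below 0 (13.3%, against 25.5%), with a median of 0.15. The counts were 10 and 7 without both libraries that stood apart, in a fit that called more genes in all. Myc itself, the growth-promoting factor, had 69.0, 62.6 and 62.4 CPM in ATRA libraries, against 196, 235 and 189 CPM in CTRL libraries after restimulation. After co-culture Myc had 417, 389 and 248 CPM in ATRA libraries, against 237, 288 and 298 CPM in CTRL libraries, where the groups overlapped through ATRA replicate 3. Its difference was -2.03 (SE 0.24, adjusted p = 3.14e-05). The co-culture effect of Myc (0.36, adjusted p = 0.0981) was 0.46 and called without both libraries that stood apart (adjusted p = 0.000583).

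Of 39 interferon-stimulated genes 35 were tested, with 2 above 0 and 10 below 0 (28.6%, near the 25.5% of all tested genes) and a median of -0.52. Without both libraries that stood apart, 2 were above and 22 below 0, with a median of -1.43. Calls below 0 over all tested genes also rose in that fit, from 3153 to 3867. Irf1, a transcription factor of interferon responses, had 51.3, 46.4 and 49.8 CPM in ATRA libraries, against 27.2, 32.6 and 44.0 CPM in CTRL libraries after restimulation. After co-culture Irf1 had 78.1, 81.1 and 118 CPM in ATRA libraries, against 24.7, 21.2 and 20.8 CPM in CTRL libraries, and the difference was -1.55 (SE 0.26, adjusted p = 0.000459). Oas3, an antiviral enzyme, had 3.85, 2.72 and 3.50 CPM in ATRA libraries, against 21.7, 26.8 and 27.3 CPM in CTRL libraries after restimulation. After co-culture Oas3 had 135, 122 and 21.98 CPM in ATRA libraries, against 86.2, 22.6 and 27.6 CPM in CTRL libraries, where ATRA replicates 1 and 2 and CTRL replicate 1 were high. It differed by -3.94 (SE 0.90, adjusted p = 0.00362), or -4.80 without co-cultured CTRL replicate 1 and -5.27 without both libraries that stood apart. The co-culture effect of Oas3 (1.03, adjusted p = 0.167) was 2.36 and called without both (adjusted p = 3.21e-09). In the MHC and antigen processing list 1 was above and 11 were below 0 (47.8%, against 25.5% of all tested genes) of 23 tested. The median was -0.58. Psmb8, a subunit of the immunoproteasome, had 158, 147 and 150.1 CPM in ATRA libraries, against 280.1, 297 and 301 CPM in CTRL libraries after restimulation. After co-culture Psmb8 had 449, 444 and 416 CPM in ATRA libraries, against 356, 289 and 288 CPM in CTRL libraries, a reversal with a difference of -1.44 (SE 0.13, adjusted p = 3.65e-06).

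Stress genes under ATF4, the factor that answers amino acid shortage, mostly lay above 0. Of 26 tested from 27 listed, 22 (84.6%, against 23.6% of all tested genes) lay above 0 and none below, with a median of 1.73. ATRA raised 23 after restimulation, and raised 6 and lowered 13 after co-culture. Of all tested genes 27.2% were higher after restimulation, and 23.6% higher and 23.3% lower after co-culture. Atf4 had 543, 519.9 and 562 CPM in ATRA libraries, against 116, 127 and 134 CPM in CTRL libraries after restimulation. After co-culture Atf4 had 369, 369 and 411 CPM in ATRA libraries, against 327, 381 and 363 CPM in CTRL libraries, with overlapping groups, and the difference was 2.00 (SE 0.13, adjusted p = 2.35e-07). Nupr1, a small stress-induced chromatin protein, had 35.0, 34.1 and 34.7 CPM in ATRA libraries, against 0.562, 0.491 and 0.807 CPM in CTRL libraries after restimulation. After co-culture Nupr1 had 17.9, 22.4 and 36.3 CPM in ATRA libraries, against 17.7, 23.2 and 24.8 CPM in CTRL libraries, and the difference was 5.56 (SE 0.39, adjusted p = 5.51e-07). Slc3a2, the heavy chain of large amino acid transporters, had 850.4, 803 and 839.9 CPM in ATRA libraries, against 172, 183 and 173 CPM in CTRL libraries after restimulation. After co-culture Slc3a2 had 325, 318 and 389 CPM in ATRA libraries, against 285, 386 and 380.3 CPM in CTRL libraries, and the difference was 2.27 (SE 0.17, adjusted p = 7.77e-07). In each of these the restimulated CTRL group was the lowest of the 4.

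Chaperones and unfolded protein genes of the endoplasmic reticulum moved alike, with 16 above 0 (69.6%) and 1 below 0 of 23 tested. Their median was 0.89, and 23.6% of all tested genes lay above 0. Atf6, a sensor of misfolded protein, had 207, 202 and 199 CPM in ATRA libraries, against 51.6, 40.9 and 46.0 CPM in CTRL libraries after restimulation. After co-culture Atf6 had 49.8, 49.1 and 67.9 CPM in ATRA libraries, against 74.95, 65.9 and 71.7 CPM in CTRL libraries, and the difference was 2.48 (SE 0.18, adjusted p = 7.77e-07). Syvn1, a ligase for proteins leaving the endoplasmic reticulum, differed by 2.25 (SE 0.16, adjusted p = 7.1e-07). Heat shock genes were split, with 4 above and 4 below 0 of 18 tested from 19 listed (22.2% each, near the shares of all tested genes). For p53 targets and cell death genes 12 lay above (46.2%) and 3 below 0 (11.5%) of 26, with a median of 0.45. Of all tested genes 23.6% lay above and 25.5% below 0. Plk2, a p53-inducible kinase, had 171, 168 and 180.0 CPM in ATRA libraries, against 24.3, 24.1 and 23.2 CPM in CTRL libraries after restimulation. After co-culture Plk2 had 50.6, 55.8 and 73.5 CPM in ATRA libraries, against 190.2, 119.9 and 131 CPM in CTRL libraries, a reversal with a difference of 4.15 (SE 0.25, adjusted p = 1.56e-07).

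Among cytokine receptor and STAT genes 9 of 28 tested lay above (32.1%) and 4 below 0 (14.3%), against 23.6% and 25.5% of all tested genes. Without both libraries that stood apart 13 and 7 did, in a fit that called more genes in all. Il1rl1, the receptor for IL-33, was lower in ATRA cells in both states. It had 2.74, 1.99 and 1.90 CPM in ATRA libraries, against 21.8, 20.5 and 14.96 CPM in CTRL libraries after restimulation. After co-culture Il1rl1 had 0.414, 0.356 and 0.235 CPM in ATRA libraries, against 76.9, 55.8 and 57.5 CPM in CTRL libraries, without overlap. The fall was larger after co-culture, and the difference was 4.41 (SE 0.35, adjusted p = 1.41e-06). Ifngr1, a chain of the interferon gamma receptor, differed by -2.38 (SE 0.25, adjusted p = 1.26e-05). Genes of the T cell receptor complex and its signalling were mixed, with 7 above (25.9%) and 10 below 0 (37%) of 27. Of all tested genes 23.6% and 25.5% were. Themis, an adaptor of receptor signalling, had 127, 131 and 139 CPM in ATRA libraries, against 427, 423 and 418 CPM in CTRL libraries after restimulation. After co-culture Themis had 577, 569 and 743 CPM in ATRA libraries, against 364, 345 and 339 CPM in CTRL libraries, and the difference was -2.53 (SE 0.14, adjusted p = 1.13e-07). Lcp2, which encodes the adaptor SLP-76, went the other way by 2.04 (SE 0.12, adjusted p = 1.22e-07). Nuclear respiratory chain genes were close to the background, with 6 above and 8 below 0 of 34 and a median of -0.02, and 9 members called with the replicate block, without restimulated ATRA replicate 1 or without restimulated ATRA replicate 3.

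**Figure D5:**
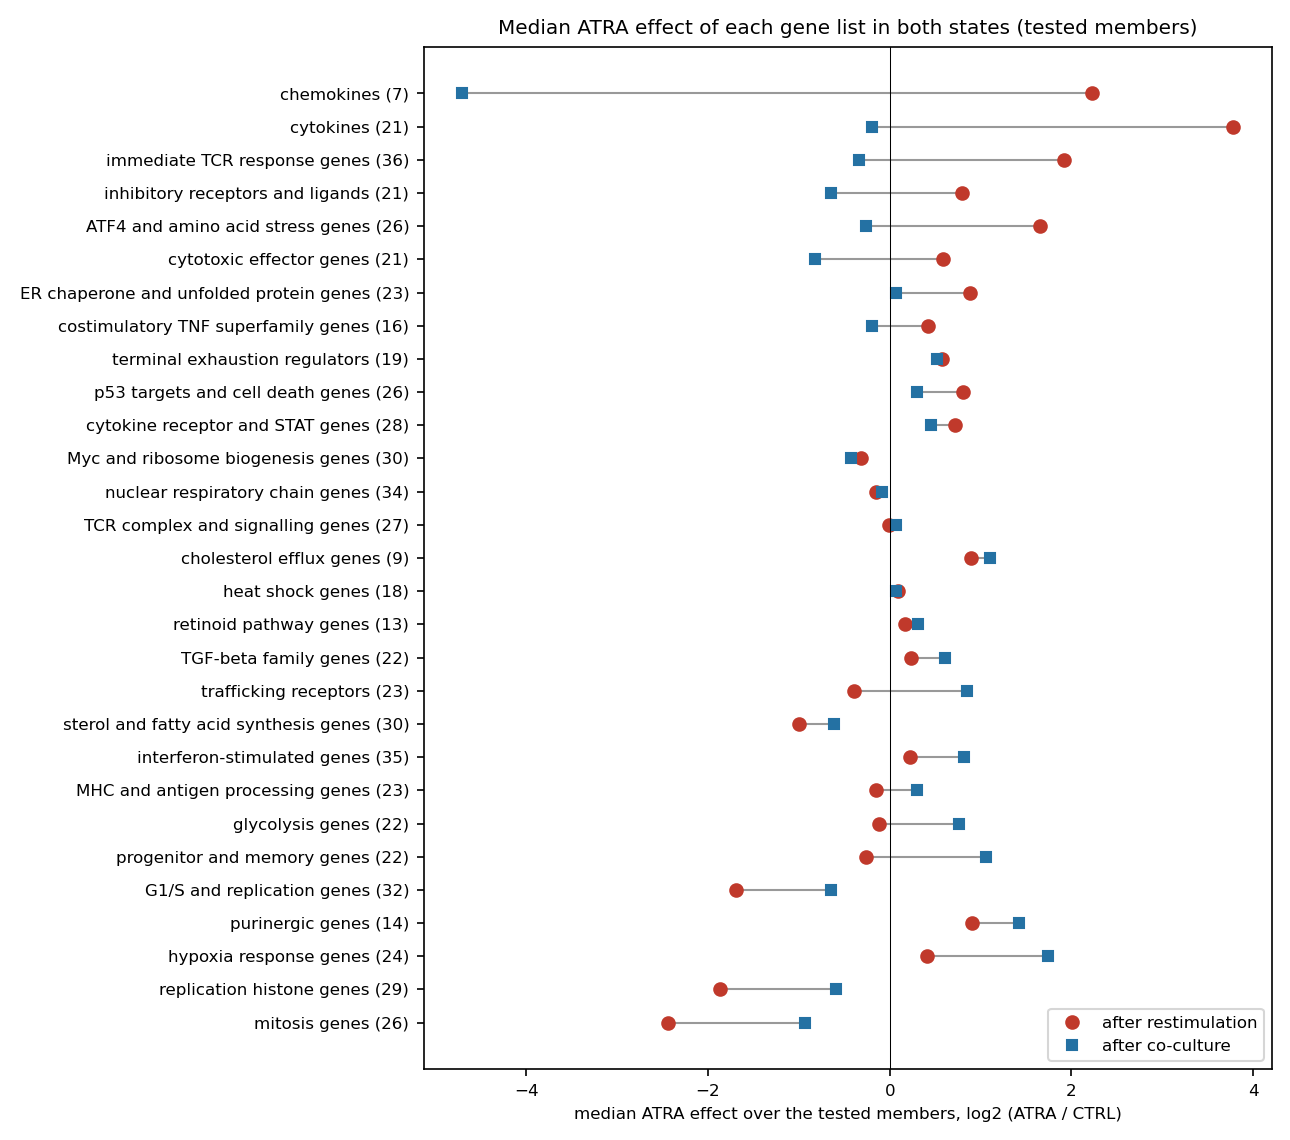
For each gene list the circle gives the median ATRA effect (log2 of ATRA over CTRL) after restimulation and the square that after co-culture, over the number of tested members in brackets; lists are ordered by the median difference. Chemokines and cytokines have the widest gaps, with medians of 2.23 and 3.78 after restimulation and -4.70 and -0.20 after co-culture, and mitosis genes lie below 0 in both states.

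Several of the largest differences fell outside these lists. Ptprn, a phosphatase-like protein of secretory vesicles, had 112, 98.0 and 106 CPM in ATRA libraries, against 0.787, 0.859 and 0.269 CPM in CTRL libraries after restimulation. After co-culture Ptprn had 1.49, 1.20 and 1.41 CPM in ATRA libraries, against 15.5, 16.7 and 17.4 CPM in CTRL libraries, a reversal with a difference of 10.96 (SE 0.32, adjusted p = 1.46e-09). Ptgs2, the inducible cyclooxygenase, had 31.9, 35.4 and 36.0 CPM in ATRA libraries, against 0 CPM in all 3 CTRL libraries after restimulation, at least 201-fold higher in ATRA cells against the 3-count floor. After co-culture Ptgs2 stayed at or under 0.236 CPM in all 6 libraries, and the difference was called (adjusted p = 1.04e-06). Scimp, a transmembrane adaptor of immune cells, had 3.57, 6.48 and 6.59 CPM in ATRA libraries, against 0.225, 0.245 and 0.269 CPM in CTRL libraries after restimulation. After co-culture Scimp had 0, 0.0445 and 0 CPM in ATRA libraries, against 7.45, 11.5 and 11.1 CPM in CTRL libraries. Its co-cultured ATRA libraries held 1 count in all, a ratio of ATRA to CTRL of 0.00146 with a 95% counting interval of 3.7e-05 to 0.00819, and the difference was called (adjusted p = 6.02e-08).

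Trpm6, a magnesium channel, had 11.7, 12.5 and 11.9 CPM in ATRA libraries, against 0.169, 0.307 and 0.0538 CPM in CTRL libraries after restimulation. After co-culture Trpm6 had 0.0828, 0 and 0 CPM in ATRA libraries, against 1.76, 4.86 and 3.82 CPM in CTRL libraries, with 2 counts in all in co-cultured ATRA cells and a ratio of 0.00841 (95% counting interval 0.00101 to 0.0307); its difference was called (adjusted p = 5.57e-07). Col5a3, a collagen chain, reversed by 10.68 (SE 0.80, adjusted p = 1e-06), 12.51 without co-cultured ATRA replicate 2 and 9.85 without both libraries that stood apart. Ppfibp2, a liprin scaffold protein, was raised after restimulation in 3 of 3 ATRA libraries and had 3 counts in all in co-cultured ATRA cells (adjusted p of the difference = 9.11e-07). Ugt1a8 and Ugt1a9, enzymes that attach glucuronic acid, were also among the 12 above 0, but genes of this cluster have exons in common, which leaves the split of reads between them uncertain.

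Among differences below 0, Cdh1, which encodes E-cadherin, had 0.223, 0.157 and 0.250 CPM in ATRA libraries, against 2.47, 3.19 and 20.3 CPM in CTRL libraries after restimulation. After co-culture Cdh1 had 22.1, 33.1 and 73.9 CPM in ATRA libraries, against 0.753, 1.00 and 0.907 CPM in CTRL libraries. The groups did not overlap in either state and their order reversed, while restimulated CTRL replicate 3 was well above its group. The difference was -10.92 (SE 1.27, adjusted p = 3.5e-05), -9.30 without that library, -10.28 without co-cultured ATRA replicate 3 and -10.18 without both libraries that stood apart. Rasgrp2, which activates Rap1 in adhesion, had 0.782, 1.78 and 1.55 CPM in ATRA libraries, against 29.8, 30.6 and 34.9 CPM in CTRL libraries after restimulation. After co-culture Rasgrp2 had 65.3, 61.8 and 45.9 CPM in ATRA libraries, against 3.68, 6.55 and 6.90 CPM in CTRL libraries, a reversal with a difference of -7.85 (SE 0.40, adjusted p = 5.48e-08). Clec12a had 0.223, 0.470 and 0.350 CPM in ATRA libraries, against 29.0, 23.7 and 33.0 CPM in CTRL libraries after restimulation. After co-culture Clec12a had 5.59, 4.32 and 0.282 CPM in ATRA libraries, against 4.31, 1.53 and 0.749 CPM in CTRL libraries, where the groups overlapped. That co-culture effect (0.64, adjusted p = 0.495) was 2.13 and called without both libraries that stood apart (adjusted p = 2.8e-05). The difference was -6.97 (SE 1.19, adjusted p = 0.000549), -7.91 without co-cultured CTRL replicate 1 and -8.45 without both libraries that stood apart.

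Some of the 12 largest differences below 0 were less firm. Grhl3, an epithelial transcription factor, rose in co-cultured ATRA cells with 1.74, 6.86 and 27.2 CPM there and 2 counts in all in CTRL cells, a ratio of 423 with a 95% counting interval of 117 to 3.5e+03. The Grhl3 difference (adjusted p = 0.0249) lost its call without restimulated CTRL replicate 2 or 3 (adjusted p = 0.0682 and 0.101) and in limma-voom (adjusted p = 0.0837). Dscam, an adhesion molecule of neurons, was at 0 in all restimulated ATRA libraries, at least 65.8-fold lower than in CTRL cells, and its call (adjusted p = 0.012) was lost without co-cultured ATRA replicate 2 (adjusted p = 0.0753). Sorcs2, a sorting receptor, was at 0 in co-cultured CTRL cells and at least 298-fold higher in ATRA cells; its call (adjusted p = 0.0271) was lost without restimulated CTRL replicate 3 (adjusted p = 0.9999), the only restimulated CTRL library with a count. Gucy2e, a retinal guanylate cyclase, Bend5 and Cyp2s1, a cytochrome P450 enzyme, were the others of the 12, with differences of -7.12, -6.78 and -6.64. Gucy2e moved to -7.91 without restimulated ATRA replicate 2 and to -6.52 without restimulated ATRA replicate 3, and Cyp2s1 to -7.77 without restimulated ATRA replicate 1.

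The naming rule also took the genes that turned round with the smallest p. Upwards after restimulation and downwards after co-culture these were Ptprn, Egr2, Sema7a, Crabp2, Upp1, Xcl1, Zswim4 and Hivep3. Sema7a, a membrane-anchored semaphorin, had 482, 444 and 488 CPM in ATRA libraries, against 66.2, 74.3 and 52.2 CPM in CTRL libraries after restimulation. After co-culture Sema7a had 41.1, 43.1 and 47.3 CPM in ATRA libraries, against 329, 268 and 272 CPM in CTRL libraries, and the difference was 5.60 (SE 0.19, adjusted p = 3.63e-09). Upp1, an enzyme of uridine breakdown, had 100.4, 101 and 99.7 CPM in ATRA libraries, against 5.74, 7.86 and 6.46 CPM in CTRL libraries after restimulation. After co-culture Upp1 had 6.34, 7.17 and 8.89 CPM in ATRA libraries, against 36.2, 31.8 and 29.6 CPM in CTRL libraries, and the difference was 6.03 (SE 0.21, adjusted p = 4.33e-09). Hivep3, a large zinc finger protein, differed by 5.92 (SE 0.22, adjusted p = 5.35e-09), and Zswim4 by 4.62 (SE 0.17, adjusted p = 4.75e-09). The reverse order was shown by Arhgef18, S1pr1, Gatm, Park7, Grk6, Rcsd1, Rasgrp2 and Prr5. Arhgef18, a guanine nucleotide exchange factor, had 2.12, 2.35 and 2.85 CPM in ATRA libraries, against 54.2, 54.2 and 51.8 CPM in CTRL libraries after restimulation. After co-culture Arhgef18 had 32.1, 27.9 and 29.2 CPM in ATRA libraries, against 11.1, 11.4 and 9.97 CPM in CTRL libraries, and the difference was -5.90 (SE 0.18, adjusted p = 1.46e-09). Park7, which protects cells from oxidative stress, had 50.1, 46.8 and 47.4 CPM in ATRA libraries, against 129.7, 134 and 127 CPM in CTRL libraries after restimulation. After co-culture Park7 had 247, 251 and 298 CPM in ATRA libraries, against 97.3, 112 and 106 CPM in CTRL libraries, and the difference was -2.77 (SE 0.13, adjusted p = 3.48e-08). Prr5, a subunit of mTORC2, differed by -4.20 (SE 0.21, adjusted p = 5.62e-08), and Gatm, Grk6 and Rcsd1 by -2.81, -2.69 and -2.78. None of the 16 had overlapping groups in either state, which the rule that chose them favours. The share of all tested genes without overlap was not counted, so this is no result about the 16.

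Few strong effects were shown to be the same in both states. With a call and at least 4-fold in each state, and a 95% interval of the difference within 2-fold either way, 4 genes were higher and 1 lower in ATRA cells both times. Hilpda, a lipid droplet protein induced by hypoxia, had 178, 188 and 199 CPM in ATRA libraries, against 25.2, 26.8 and 37.7 CPM in CTRL libraries after restimulation. After co-culture Hilpda had 199, 201 and 281 CPM in ATRA libraries, against 47.3, 41.6 and 39.1 CPM in CTRL libraries, with a difference of 0.24 (95% interval -0.26 to 0.75). Igf1r, the receptor for insulin-like growth factor, had 22.8, 25.04 and 21.5 CPM in ATRA libraries, against 2.92, 3.68 and 5.44 CPM in CTRL libraries after restimulation. After co-culture Igf1r had 24.5, 25.03 and 29.6 CPM in ATRA libraries, against 7.24, 3.66 and 4.69 CPM in CTRL libraries, with a difference of 0.18 (95% interval -0.59 to 0.95). Csn3 and Ccdc74a had a group at 0 or with 1 count, so their interval is not reliable.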

How the data were processed

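Bulk RNA sequencing of sorted cells gave 12 libraries, 3 in each of 4 groups, which were assigned by sample title. The authors deposited whole-number counts per gene symbol, 1 table for each state, without normalization. The submitters' processing notes name the build mm39, Salmon 1.10.3, STAR 2.7.11b, DESeq2 1.42.1 and cutadapt 5.0. Their roles, the annotation and the strand setting of the counting are not stated, so overlapping and antisense genes cannot be told apart. The co-cultured table held 13948 rows with row sums of at least 10, and the restimulated one 35588 rows. In that file 16386 rows were 0 throughout and 32 repeated a symbol, for which the largest row was taken. A deposited table of normalized values for the restimulated libraries was not used.

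Counts were fitted with edgeR 4.0.16 in R 4.3.3 on all 12 libraries: TMM scaling, the filterByExpr filter by group, robust quasi-likelihood, no replicate block, Benjamini-Hochberg adjustment over all tested genes, a call at an adjusted p under 0.05. The effects within a state are contrasts of the same fit. Standard errors (SE) come from the coefficient and its F. The procedure was tested on simulated data. Alternatives were other scalings, filters, DESeq2 1.42.0, limma-voom (limma 3.58.1), a replicate block, leaving out libraries, a fit of each state alone and symbols matched by synonyms. Named genes were the 12 largest called differences in each direction whose highest group mean reached 10 CPM and whose libraries were separate in 1 state or both, the 3 called members of each list with the smallest p, a fixed list of 36 genes, and the genes with the same or with opposite effects in both states. The genes, lists and rules were chosen with earlier results of these data known. Some genes that these rules take are not reported here.

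The labels give same-numbered ATRA and CTRL libraries of a state a shared batch, so the numbers pair them; their deviations from the group means correlated at -0.10 to 0.10. No 2 libraries of a group were alike within sampling noise (smallest chi-square per degree of freedom 3.51). Floors and counting intervals cover counting error only. Promoter sequences are RefSeq's for GRCm38.p6.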

Additional observations from a re-analysis of the deposited data

Results flagged for a closer look

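Because the difference between states is itself the comparison made here, the genes with a called difference are set out once more as a group: 2924 lay above 0 and 3153 below 0 by the interaction test. Among the genes whose ATRA effect turned round, those higher in ATRA cells after restimulation and lower after co-culture with the smallest p were Ptprn with a difference of 10.96 on the log2 scale, Egr2 with 8.10, Sema7a with 5.60, Crabp2 with 9.90, Upp1 with 6.03, Xcl1 with 10.95, Zswim4 with 4.62 and Hivep3 with 5.92. Those lower after restimulation and higher after co-culture were Arhgef18 with -5.90, S1pr1 with -5.48, Gatm with -2.81, Park7 with -2.77, Grk6 with -2.69, Rcsd1 with -2.78, Rasgrp2 with -7.85 and Prr5 with -4.20. None of these 16 lost its call under any alternative that was run. They were picked for the smallest p in these same data, so this is no independent support.

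Symbols spelled in the restimulated table alone could not enter the difference. Of 223 such named symbols that passed the filter there, ATRA raised 128 (57.4%) and lowered 35 (15.7%) after restimulation. For the tested genes that both tables share the shares were 27.2% and 27.6%, but the sets were selected in unlike ways and cannot be compared. Of the 223, 43 were at 0 in every CTRL library and so passed the filter through ATRA cells alone, which sets their direction. The same holds for others with few CTRL counts, such as Adamts1 with 6 and Arhgap42 with 1 in all. Many of the 223 symbols differ between the tables only in spelling, such as the mitochondrial genes. Among those at 0 in every restimulated CTRL library, Stfa2, a stefin protease inhibitor, averaged 63.0 CPM in restimulated ATRA cells, Mmp13, a collagenase, 19.3 CPM, Stfa3 12.9 CPM and Sox9, a developmental transcription factor, 8.02 CPM. Their level in co-cultured cells was not analysed here.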

How the results depend on the processing

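The number of called differences was 5403 with the replicate block that pairs same-numbered libraries, 6085 with RLE scaling, 5960 with library totals only, 6409 in DESeq2, 8173 in limma-voom with quality weights, 7462 without both libraries that stood apart and 5361 to 7046 on leaving out 1 library. Between 87.0% and 99.9% of the called genes kept their call in these fits. With each state fitted alone or with symbols matched by synonyms it was 100% after rounding. The fit of each state alone tested the difference by a normal approximation, which makes calls easier. Of the genes called in the main fit, 3 had an estimate of opposite sign without restimulated CTRL replicate 3, and none had in the other fits. Calls above 0 made up 48.1% of all calls, and 52.5% with library totals only. Calls of the co-culture effect numbered 8698 in limma-voom and 4386 to 5929 on leaving out 1 library, against 5796. A test against 2-fold called 1840 differences. Of 130 called named genes 6 lost the call under at least 1 alternative; the block ended the calls of Gzmb and Tcf7, made one for Il4 and changed no other call of a difference among named genes. Of the effects within a state, it made those of Tnf after co-culture and of Eomes and Gata3 after restimulation called, and ended the calls of Tcf7 and Odc1 after restimulation and of Il21r after co-culture.

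Differences that were not called changed sign as follows. Gata3 (-0.37) gave 0.63 in limma-voom, 0.028 with the block, 0.98 without both libraries that stood apart and -0.82 to 0.71 on leaving out 1 library. Without both libraries that stood apart Igf1r gave -0.051 and Csn3 -0.0021, and Csn3 gave -0.071 with each state fitted alone. On leaving out 1 library Igf1r ran from -0.14 to 0.46, Csn3 from -0.44 to 1.38, Ccdc74a from -2.08 to 0.48, and Acvrl1 from -1.67 to 0.19. The cause of these changes was not tested.

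With the whole 300-base window of the reference table TGANTCA was in 4.83% of all promoters and TGANTCA together with TTTCC in 2.87%. The hypoxia core was in 27.8% above 0, 26.8% below 0 and 26.1% of all. A longer window holds more letters. The 3-count floor is 0.118 to 0.184 CPM per library, and lower levels rest on 1 or 2 counts.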
